A study of Homo sapiens with 6 samples.

Results

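The ERBB family was followed through 10 genes, the receptors EGFR, ERBB2, ERBB3 and ERBB4 and the ligands HBEGF, AREG, EREG, TGFA, BTC and NRG1, in a pair of cybrid lines. Members were the probe sets of the expression array that the platform's annotation gives to only 1 of these symbols. There were 38 such probe sets out of 54613 tested, and they covered 9 of the 10 genes. AREG had no probe set under this rule and was not analysed here.

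A cybrid is a cell made by fusing a cell without its nucleus, which brings mitochondria, with a cell without mitochondrial DNA, which brings the nucleus. The 10A/143B cybrids held mitochondria of MCF10A, a non-cancerous breast epithelial line, and the 468/143B cybrids held mitochondria of MDA-MB-468, a breast cancer line. The nucleus of both came from 143B p0, an osteosarcoma line without mitochondrial DNA, and per the labels' protocols donor cells were enucleated with actinomycin-D, fused with polyethylene glycol and then selected with BrdU in medium lacking uridine. Each cybrid was measured on 3 arrays, and neither the number of clones nor separate cultures are stated. The title of the series asks whether mitochondria of non-cancerous cells suppress oncogenic pathways in metastatic cells, and the ERBB receptors head such pathways.

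ERBB receptors are tyrosine kinases of the cell surface that pair up when a ligand binds and then signal through RAS and ERK kinases, PI3-kinase and STAT factors. HBEGF, AREG, EREG, TGFA and BTC are made as membrane proteins that bind EGFR once they are shed by ADAM proteases, and HBEGF, EREG and BTC also bind ERBB4. NRG1 binds ERBB3 and ERBB4, while ERBB2 has no known ligand of its own and serves as a partner. MDA-MB-468 is known for extra copies of EGFR in its nucleus. The labels call the donor cells enucleated, and whether any of these copies reached the cybrids was not tested.

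Replicates 2 and 3 of each cybrid were near duplicates. Across 9187 bright probe sets (mean log2 level above 8) the SD of their log2 difference was 0.0788 (10A/143B) and 0.0922 (468/143B), whereas replicate 1 stood 0.287 to 0.289 from them in 10A/143B cybrids and 0.263 to 0.267 in 468/143B cybrids on the same measure. Each call of a member probe set below is therefore given on all 6 arrays and again with replicates 2 and 3 averaged to 1 sample, which leaves 2 samples per cybrid, and all p-values measure only the spread between these arrays. The median intensity of an array lay between 21.6 and 24.4 for 10A/143B and between 20.3 and 21.3 for 468/143B. The 3′ probe set over the 5′ one of a gene is a sign of RNA integrity. For ACTB it gave 1.92, 1.74 and 1.59 in 10A/143B replicates 1, 2 and 3, against 1.18, 1.65 and 1.67 in 468/143B. For GAPDH it gave 1.01, 0.973 and 0.933 in 10A/143B, against 0.966, 1.06 and 1.07 in 468/143B. VIM, the filament protein of mesenchymal cells, was bright in both (mean intensity 8687 in 10A/143B and 8418 in 468/143B). Of 10 markers of breast epithelium 8 were measured, with 0 higher and 1 lower in 10A/143B (0 lower averaged), and their intensities summed to between 159 and 210.0 on 10A/143B arrays and between 133 and 179 on 468/143B arrays. KRT5, a keratin of basal breast cells, was at the minimum value of 1 on every 10A/143B array and at most 2.07 in 468/143B. KRT19 was the marker lower in 10A/143B (mean intensity 3.24, against 14.9 in 468/143B). EPCAM leaned the other way without passing (55.3 against 36.8), and 5 of the 8 lay below the median level of all probe sets in both cybrids. Of 6 mesenchymal and bone markers 0 were higher and 2 lower in 10A/143B (1 lower averaged), with summed intensities of 10286 to 11090 in 10A/143B and 10761 to 12093 in 468/143B. VIM made up most of these sums, and COL1A2 was dim (mean intensity 8.49 in 10A/143B and 8.76 in 468/143B). SPARC was lower in both fits (1483 against 2354), and RUNX2 on 6 arrays only. TK1, the marker listed for the selection, was also lower in 10A/143B in both fits (mean intensity 208, against 399 in 468/143B). The part of these differences in the results below was not tested, and in such bulk RNA fewer cells of a type and less RNA per cell cannot be told apart.

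Differences are given as 10A/143B minus 468/143B on the scale of log2(intensity + 16), with the standard error (SE) of the limma fit to all probe sets and Benjamini-Hochberg adjusted p. A probe set passed when its adjusted p was under 0.05. In the background, 28% of all probe sets passed on 6 arrays (17.4% higher and 10.6% lower in 10A/143B), and 15.8% passed with replicates 2 and 3 averaged (10.7% higher and 5.08% lower). Scaling shifted this balance. Higher calls made up 62.2% of all calls as deposited but 51.7% after each array was centred on its median, which moved the median difference of all probe sets of 0.011 to -0.092. The member calls below were the same 10 in the same directions under that centring and after quantile normalization.

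Of the 38 member probe sets 1 was higher and 9 were lower in 10A/143B, or 26.3% in all, close to the 28% of the background. With replicates 2 and 3 averaged 5 passed, 1 higher and 4 lower. The 10 that passed belonged to EGFR, ERBB4, HBEGF, TGFA and NRG1, and none to ERBB2, ERBB3, EREG or BTC. All 10 were among the 17 member probe sets whose higher group mean reached the median of all probe sets. Of the 21 dimmer ones 0 passed, whereas the 28% covers probe sets of every level. The arrays of the cybrids did not overlap on 13 of the 38 (4 higher and 9 lower in 10A/143B), beside 40.3% of all probe sets (23.5% higher and 16.8% lower). The median difference over the 38 was -0.10, beside 0.011 over all probe sets.

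**Figure D1:**
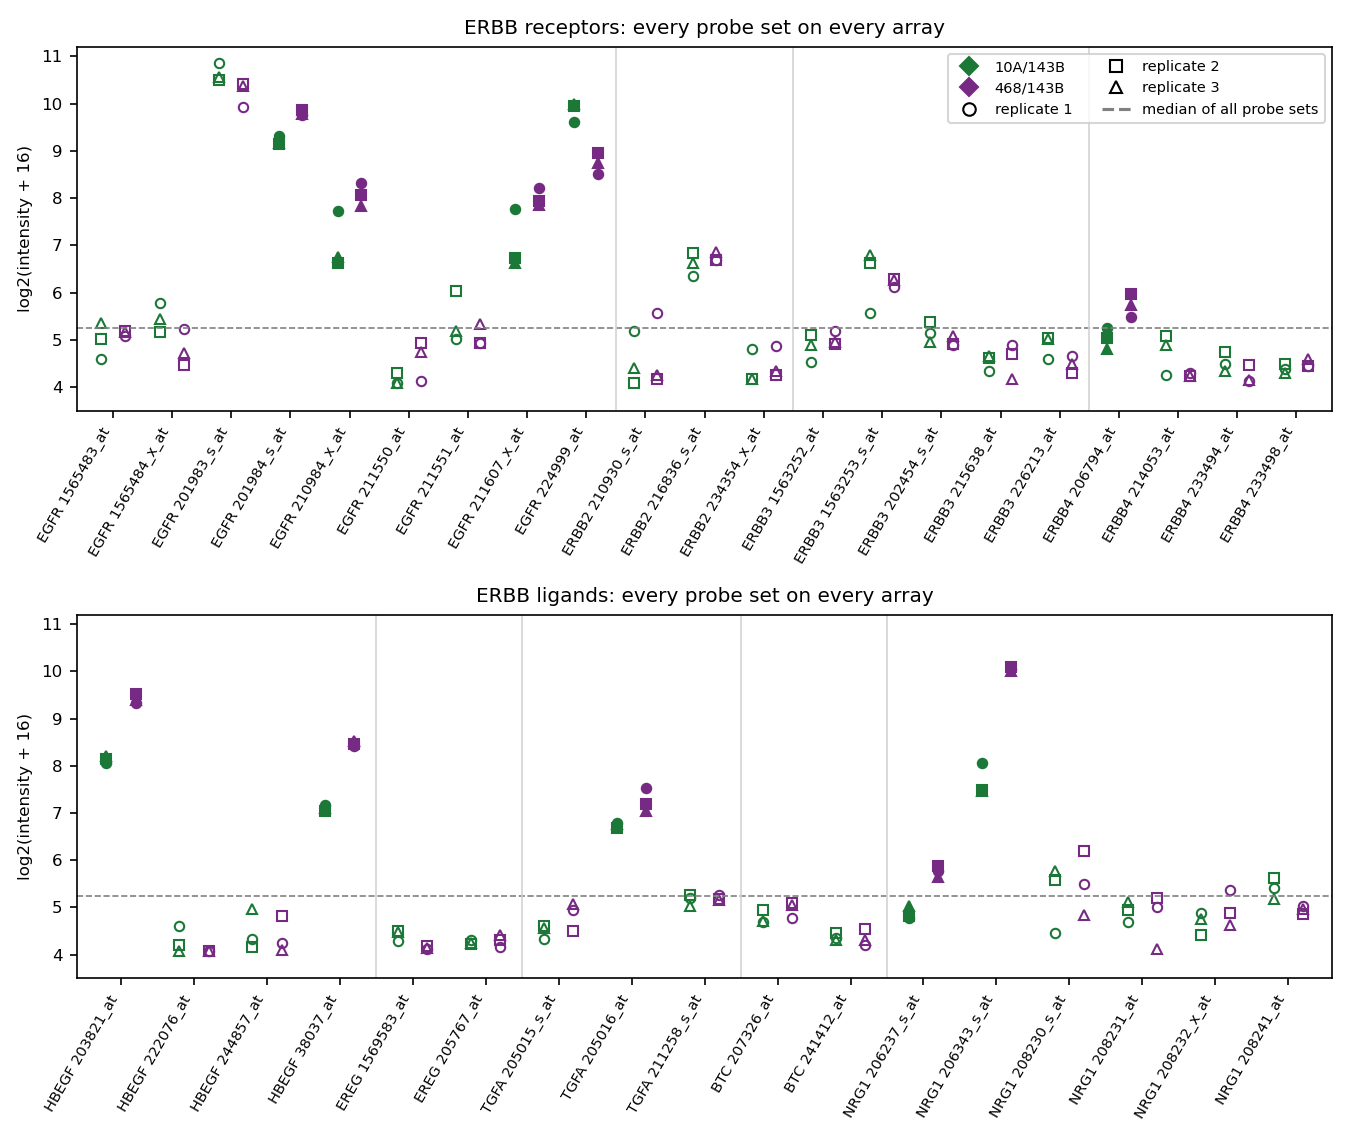
Log2(intensity + 16) of every member probe set on every array, receptors above and ligands below, with 10A/143B in green left of 468/143B in purple, marker shape by replicate, filled where the probe set passed on 6 arrays, and a dashed line at the median of all probe sets (5.25). NRG1 206343_s_at and both bright HBEGF probe sets lie lower on every 10A/143B array, while most probe sets of ERBB2, ERBB3, EREG and BTC sit near or under the line.

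The starts of HBEGF and EGFR are shown because HBEGF is the ligand whose 2 bright probe sets moved together and EGFR is the receptor whose probe sets disagreed. The stretches are the 250 bases before each start in RefSeq's annotation of GRCh38.p14, read 5′ to 3′ on the gene's strand. HBEGF lies on the minus strand with its stretch at chr5:140346604-140346853. EGFR lies on the plus strand and has 2 starts in the table, the first with its stretch at chr7:55018767-55019016 and the other, inside the gene, at chr7:55109589-55109838. Capitals mark every match, on either strand, to the GC box GGGCGG, the AP-1 site TGANTCA or the TATA box TATAAA.
HBEGF: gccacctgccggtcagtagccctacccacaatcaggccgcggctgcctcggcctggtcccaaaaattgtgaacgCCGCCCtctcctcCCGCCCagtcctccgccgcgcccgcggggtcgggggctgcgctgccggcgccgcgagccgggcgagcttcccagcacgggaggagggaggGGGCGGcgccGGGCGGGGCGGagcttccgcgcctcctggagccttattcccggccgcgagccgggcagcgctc
EGFR first start: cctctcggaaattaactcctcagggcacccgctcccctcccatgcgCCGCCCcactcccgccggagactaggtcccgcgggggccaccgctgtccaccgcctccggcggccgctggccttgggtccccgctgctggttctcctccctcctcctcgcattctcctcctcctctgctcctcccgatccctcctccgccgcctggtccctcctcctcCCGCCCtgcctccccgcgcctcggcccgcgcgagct
EGFR other start: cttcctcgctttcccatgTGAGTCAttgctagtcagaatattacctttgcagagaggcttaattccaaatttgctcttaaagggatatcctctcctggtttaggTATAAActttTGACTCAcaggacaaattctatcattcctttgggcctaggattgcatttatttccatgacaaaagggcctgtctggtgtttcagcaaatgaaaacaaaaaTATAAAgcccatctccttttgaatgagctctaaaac
The HBEGF stretch held 5 GC boxes, 2 of which share 1 base, and the stretch before the first EGFR start held 2. The stretch before the other EGFR start held 2 AP-1 sites, 2 TATA boxes and 0 GC boxes. Among 35116 such stretches in the table, 42.6% held a GC box, 6.57% an AP-1 site and 10.7% a TATA box. These matches describe letters only, and the arrays do not tell which start a transcript came from.

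HBEGF, a heparin-binding ligand of EGFR and ERBB4, was lower in 10A/143B cybrids on both of its bright probe sets. On 203821_at its intensity was 251, 267 and 280.1 in 10A/143B replicates 1, 2 and 3, against 626, 719 and 657 in 468/143B. On 38037_at it was 127, 116 and 122 in 10A/143B, against 324, 335 and 355 in 468/143B. Every 10A/143B array lay below every 468/143B array, and within each cybrid the 3 arrays were close. The fall was 2.42-fold on 203821_at (log2 -1.28 ± 0.088, SE, n = 3 arrays each, adjusted p = 2.34e-05, and 0.00172 averaged) and 2.57-fold on 38037_at (-1.36 ± 0.096, adjusted p = 2.61e-05, and 0.00238 averaged). Only 1.16% and 0.912% of all probe sets had a more negative difference. The replicate 1 arrays alone gave -1.27 and -1.25. HBEGF's other probe sets, 222076_at and 244857_at, had intensities of at most 8.34 and 15.1 and did not pass (0.21 ± 0.13 and 0.099 ± 0.25). HBEGF is 13.8 kb long, and genes of its length class had a median difference of -0.073.

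TGFA, another ligand of EGFR, was lower on its brightest probe set when all 6 arrays were fitted. On 205016_at its intensity was 95.01, 86.2 and 93.1 in 10A/143B, against 169, 131 and 115 in 468/143B. The groups did not overlap, but the 468/143B arrays spread more widely than the 10A/143B arrays. The fall was 1.42-fold (-0.51 ± 0.15, adjusted p = 0.0355), and it did not pass with replicates 2 and 3 averaged (-0.57, adjusted p = 0.144). It was also lost when any of 10A/143B replicates 2 and 3 or 468/143B replicates 1 and 2 was left out, with the value at its smallest, -0.37, without 468/143B replicate 1. The other probe sets, 205015_s_at and 211258_s_at, stayed below an intensity of 22.4 and gave -0.34 ± 0.19 and -0.035 ± 0.18, neither of which passed.

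EREG and BTC, further EGFR ligands, were dim on all of their probe sets. EREG had intensities of at most 6.77 over its 2 probe sets. On 1569583_at EREG had 3.56, 6.77 and 6.36 in 10A/143B, against 1.51, 2.25 and 1.52 in 468/143B, so that the arrays did not overlap although the difference of 0.28 ± 0.10 did not pass (adjusted p = 0.0844). Without 10A/143B replicate 1 it was 0.35 and passed (adjusted p = 0.0369 in limma). On 205767_at EREG differed by -0.036 ± 0.11, with a 95% interval from -0.28 to 0.21. BTC reached at most 18.0. On 207326_at BTC had 9.99, 14.9 and 10.3 in 10A/143B, against 11.5, 18.0 and 17.0 in 468/143B, which overlap (-0.18 ± 0.18, 95% interval -0.58 to 0.22). On 241412_at BTC gave 0.024 ± 0.12. No detection calls were used, so whether these values stand above background was not tested.

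NRG1, the neuregulin that binds ERBB3 and ERBB4, held the largest difference among the 38 probe sets. On 206343_s_at its intensity was 251, 163 and 162 in 10A/143B, against 1038, 1067 and 1009.9 in 468/143B. All 468/143B arrays lay far above all 10A/143B arrays, and 10A/143B replicate 1 was the highest of its group. The fall was 5.16-fold (-2.37 ± 0.15, adjusted p = 1.69e-05, and 0.000993 averaged), and only 40 of all probe sets had a more negative difference. The replicate 1 arrays alone gave -1.98, against -2.60 and -2.53 in replicates 2 and 3.

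The remaining NRG1 probe sets were dim and did not follow with the same size. On 206237_s_at NRG1 had 11.4, 12.3 and 16.7 in 10A/143B, against 38.3, 42.8 and 34.3 in 468/143B, again without overlap. This difference was -0.89 ± 0.19 (adjusted p = 0.00685), it did not pass with replicates 2 and 3 averaged (adjusted p = 0.0752), and it ran from -0.40 with an offset of 64 to -1.46 with an offset of 1, since the probe set is dim in 10A/143B. On 208241_at NRG1 had 26.4, 33.4 and 20.1 in 10A/143B, against 16.7, 13.3 and 15.2 in 468/143B. Here each 10A/143B array was the higher one, but the difference of 0.45 ± 0.19 did not pass (adjusted p = 0.135). The other 3 probe sets, 208230_s_at, 208231_at and 208232_x_at, overlapped between the cybrids and gave -0.24 ± 0.42, 0.15 ± 0.29 and -0.28 ± 0.23. The platform's annotation ties the 6 probe sets of NRG1 to 5 different sequence accessions, and which isoforms each detects was not tested. Without probe sets of the cross-matching suffixes _s_at and _x_at, the brightest left for NRG1 was 208241_at, and NRG1 was then not called (0.45, adjusted p = 0.127). NRG1 is 1130 kb long and falls in the longest of 10 length classes of protein-coding genes, in which the median difference was 0.18, with 34.1% of genes higher and 9.69% lower in 10A/143B.

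**Figure D2:**
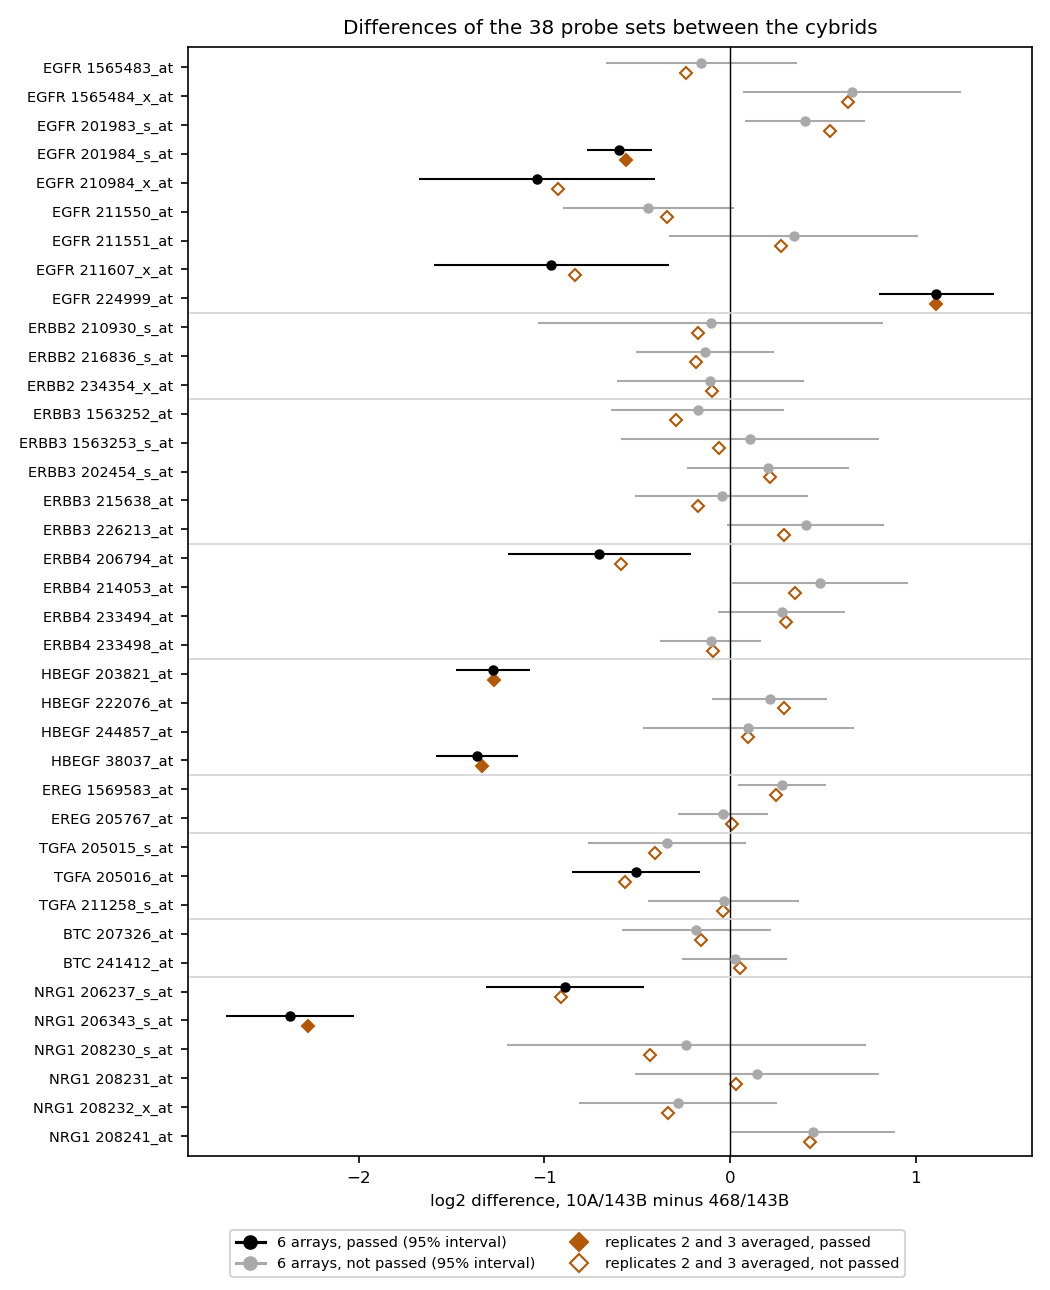
Log2 difference (10A/143B minus 468/143B) of each member probe set, with circles and 95% intervals from the fit to 6 arrays (black where it passed) and diamonds from the fit with replicates 2 and 3 averaged (filled where it passed). Filled diamonds stand at NRG1 206343_s_at (-2.27), HBEGF 203821_at (-1.27) and 38037_at (-1.33), and on both sides of 0 for EGFR, 224999_at at 1.11 and 201984_s_at at -0.56.

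EGFR, the receptor of most of these ligands, had no common direction. Of its 9 probe sets 4 had a difference above 0 and 5 below 0, with 1 passing as higher and 3 as lower in 10A/143B. On 224999_at EGFR had intensities of 771, 969 and 996 in 10A/143B, against 349.7, 481 and 413 in 468/143B. Every 10A/143B array was higher, and the difference was 2.16-fold (1.11 ± 0.14, adjusted p = 0.000357, and 0.00546 averaged). On 201984_s_at EGFR had 622, 553 and 556 in 10A/143B, against 855, 917 and 867 in 468/143B. Every 10A/143B array was lower, and the fall was 1.51-fold (-0.60 ± 0.076, adjusted p = 0.000459, and 0.0216 averaged). On 201983_s_at, the brightest, EGFR had 1846, 1428 and 1509.7 in 10A/143B, against 962, 1342 and 1314 in 468/143B. These arrays did not overlap either and 10A/143B was above, but by 0.93 in replicate 1 and only 0.089 and 0.20 in replicates 2 and 3, and the difference of 0.41 ± 0.14 did not pass (adjusted p = 0.0657).

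A pair of EGFR probe sets with the cross-matching suffix _x_at gave the lower direction with wide spread. On 210984_x_at EGFR had 197, 82.7 and 91.1 in 10A/143B, against 304, 252 and 211 in 468/143B. On 211607_x_at EGFR had 201, 90.5 and 82.7 in 10A/143B, against 282, 231 and 214 in 468/143B. On both, 10A/143B replicate 1 lay close to the lowest 468/143B array while replicates 2 and 3 lay far below. The differences were -1.04 ± 0.28 (adjusted p = 0.0225) and -0.96 ± 0.28 (adjusted p = 0.0312), and neither passed with replicates 2 and 3 averaged (adjusted p = 0.112 and 0.154). Without 10A/143B replicate 1 they were -1.39 and -1.32. The call of 210984_x_at was lost without replicate 2 or 3 of 10A/143B or replicate 1 or 2 of 468/143B, and that of 211607_x_at without any of these or 468/143B replicate 3. In a limma fit without its intensity trend 211607_x_at did not pass either (adjusted p = 0.0579). The 4 remaining EGFR probe sets had intensities of at most 49.9 and did not pass. On 1565483_at and 211551_at EGFR differed by -0.16 ± 0.23 and 0.34 ± 0.29. The others were 1565484_x_at at 0.66 ± 0.26 (adjusted p = 0.0968) and 211550_at at -0.44 ± 0.20 (adjusted p = 0.155). Without 468/143B replicate 1 both passed in limma, 1565484_x_at at 0.87 (adjusted p = 0.0399) and 211550_at at -0.68 (adjusted p = 0.0102).

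The pair 224999_at and 201984_s_at is singled out because they passed in opposite directions, and their levels cannot be set against each other. Probe sets passing both ways were not rare on this array. They occurred in 27.5% of the 229 genes with exactly 4 passing probe sets, as EGFR had, and in 6.21% of the 10523 genes with at least 2 probe sets. The platform's table gives 7 accessions for 8 of EGFR's probe sets and none for 201983_s_at, and neither the isoforms nor the stretch of the transcript they detect was tested. Taken as 1 value per gene, EGFR was higher by 0.41 on its brightest probe set (adjusted p = 0.0534 when fitted over genes), at -0.076 as the mean of its probe sets (adjusted p = 0.569) and higher by 1.11 without _s_at and _x_at probe sets (adjusted p = 0.000218). EGFR, at 193 kb, belongs to the longest length class as NRG1 does.

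**Figure D3:**
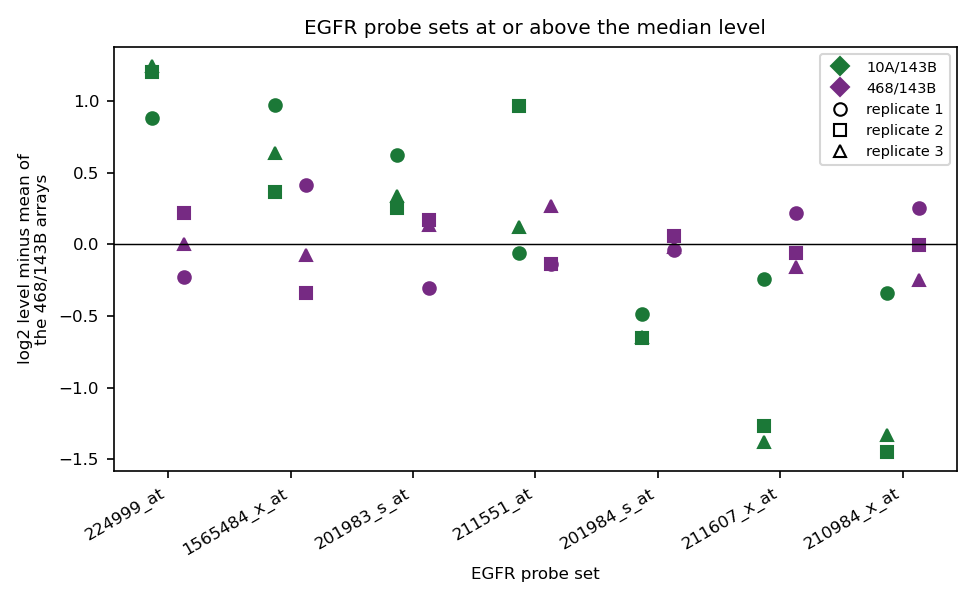
The 7 EGFR probe sets whose higher group mean reached the median of all probe sets (5.25), ordered by their difference, with each array's log2 level minus the mean of the 468/143B arrays (10A/143B green, left; 468/143B purple, right; marker shape by replicate). The 10A/143B arrays lie above those of 468/143B on 224999_at and 201983_s_at and below them on 201984_s_at, 211607_x_at and 210984_x_at.

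ERBB2, the partner receptor, gave no difference that passed. On its brightest probe set, 216836_s_at, ERBB2 had intensities of 65.3, 99.0 and 83.3 in 10A/143B, against 86.8, 86.8 and 100.4 in 468/143B. The arrays of the cybrids overlapped (-0.14 ± 0.16, 95% interval -0.51 to 0.24, adjusted p = 0.614). The other ERBB2 probe sets, 210930_s_at and 234354_x_at, had intensities of at most 31.6 and gave -0.10 ± 0.41 and -0.11 ± 0.22.

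ERBB3, the receptor with little kinase activity of its own, did not pass on any of its 5 probe sets when all 6 arrays were fitted. On 1563253_s_at, its brightest, ERBB3 had 31.1, 82.7 and 95.7 in 10A/143B, against 53.4, 62.2 and 60.5 in 468/143B. Replicate 1 of 10A/143B was the lowest of the 6 arrays and replicates 2 and 3 the highest, so the difference of 0.11 ± 0.30 (95% interval -0.59 to 0.80) rests on which arrays are used. Without 10A/143B replicate 1 it was 0.49 and passed as higher (adjusted p = 0.0343 in limma), and 226213_at then passed too (0.56, adjusted p = 0.0428). ERBB3 ranged from -0.17 ± 0.20 on 1563252_at to 0.41 ± 0.19 on 226213_at, with 202454_s_at at 0.20 ± 0.19 and 215638_at at -0.044 ± 0.20. Its 4 dimmer probe sets had intensities of at most 25.6.

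ERBB4, a receptor for neuregulins and some EGFR ligands, passed as lower on 1 of 4 probe sets. On 206794_at ERBB4 had 21.9, 16.8 and 11.8 in 10A/143B, against 28.8, 46.5 and 37.3 in 468/143B. The arrays did not overlap, although replicate 1 showed a gap of only -0.24 against -0.93 and -0.94 in replicates 2 and 3. The fall was 1.63-fold (-0.70 ± 0.22, adjusted p = 0.0401) and did not pass with replicates 2 and 3 averaged (-0.59, adjusted p = 0.286) or without replicate 2 or 3 of either cybrid. It ran from -0.33 with an offset of 64 to -1.13 with an offset of 1. The other ERBB4 probe sets lay at intensities of at most 17.8 and did not pass. They were 214053_at at 0.48 ± 0.21, 233494_at at 0.28 ± 0.15 and 233498_at at -0.10 ± 0.12. Without 10A/143B replicate 1, however, 214053_at was 0.73 and passed as higher (adjusted p = 0.00617 in limma), opposite to 206794_at.

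Genes around the receptors came from 4 lists holding 53 genes, and 48 of them had a probe set, the brightest standing for the gene. Of these 19 were higher and 11 lower in 10A/143B, where 33.9% of all genes passed on their brightest probe sets (19.1% higher and 14.8% lower). With replicates 2 and 3 averaged 12 were higher and 6 lower, where 19.9% of all genes passed (12.4% higher and 7.48% lower). The median difference of the 48 genes was 0.17. Most of the 48 reached the median level of all probe sets, whereas the shares over all genes cover every level. Calls over all genes also varied with gene length. In the longest of 10 length classes 34.1% were higher and 9.69% lower, against 6.53% and 21.7% in the shortest. The 48 were not matched to other genes in level or length, so whether they stand apart from such genes was not tested. Genes named below passed in both fits unless said otherwise, and other probe sets of a gene are given by their result on 6 arrays.

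The shedding machinery held 5 genes that were higher and 2 that were lower in 10A/143B out of 9 (4 and 2 averaged). ADAM10, a protease known in mouse cells to release EGF and BTC, had intensities of 1552, 1552 and 1596 in 10A/143B, against 695, 719 and 685 in 468/143B. It was 2.21-fold higher (1.15 ± 0.060, adjusted p = 8.34e-06), and its 2 other probe sets passed in the same direction (0.89 and 1.44), the first of them not when averaged (adjusted p = 0.13). ADAM17, which in mouse cells releases HBEGF, TGFA and AREG, was higher by 0.61 ± 0.15 (adjusted p = 0.013, and 0.0414 averaged), while its other probe sets, at 0.21 and 0.25, did not pass. FRMD8, a partner of the iRhom proteins that steer ADAM17, was higher by 1.16 ± 0.12, on 1 of its 4 probe sets. ADAM9 was higher by 0.83 ± 0.063 on its brightest probe set and by 1.14 on another, which did not pass when averaged (adjusted p = 0.151), but its remaining probe set passed at -1.10, which leaves ADAM9 without 1 direction. RHBDF1, which encodes iRhom1, was lower (-0.93 ± 0.17), on 1 of its 2 probe sets. BACE1, a protease that also cleaves NRG1 in mice, was lower (-0.79 ± 0.11), and 2 of its 3 other probe sets passed as lower too (-1.22, and -0.70 with an averaged adjusted p of 0.207), with the remaining one at 0.089.

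Among 4 other ligands measured 0 were higher and 1 lower. NRG2, a neuregulin that binds ERBB3 and ERBB4, was lower (-0.75 ± 0.11, adjusted p = 0.000817, and 0.0339 averaged), with mean intensities of 99.3 in 10A/143B and 177 in 468/143B. Its 2 other probe sets did not pass (-0.68, adjusted p = 0.0811, and -0.24, adjusted p = 0.692). EGF itself did not pass and was dim, with mean intensities of 5.47 in 10A/143B and 8.75 in 468/143B.

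Genes of receptor turnover and inhibition went both ways, with 7 of 18 higher and 5 lower (3 and 2 averaged). SOCS4, an adaptor of ubiquitin ligases that acts on EGFR, was higher by 2.07 ± 0.13 on its brightest probe set and stood at -0.032 on its other. USP8, a deubiquitinase that acts on receptors in endosomes, was higher by 1.22 ± 0.095, and its other probe set passed at 1.64. STAM was higher by 0.38 ± 0.082 and its partner in endosomal sorting, HGS, lower (-0.98 ± 0.10); of these, only HGS also passed with replicates 2 and 3 averaged, and its other probe set did not pass (0.19). LRIG1, a membrane protein that lowers ERBB receptors, was lower (-0.58 ± 0.10), whereas its other 3 probe sets did not pass. LRIG3 (-0.53 ± 0.11) and the phosphatase PTPN1 (-0.98 ± 0.28) were lower on 6 arrays, neither of them in the averaged fit. PTPN1's 3 other probe sets did not pass (0.12, 0.20 and -0.066). LRIG2 was higher by 0.79 ± 0.096 on its brightest probe set but passed at -1.51 on another, while 2 did not pass (-0.89 and -0.0016). ERRFI1, the inhibitor of EGFR that is induced by its own signalling, was higher by 0.20 ± 0.058 (adjusted p = 0.0315), but not in the averaged fit (adjusted p = 0.244).

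Adaptors and effectors held 7 higher and 3 lower genes of 17 (5 and 1 averaged). SOS1, the exchange factor that loads RAS, had mean intensities of 463 in 10A/143B and 63.2 in 468/143B and was 6.06-fold higher (2.60 ± 0.12, adjusted p = 6.07e-06). Another SOS1 probe set passed at 1.89, while 3 did not pass (0.25, 0.23 and -0.14). PTPN11, the phosphatase SHP2, was 2.77-fold higher (1.47 ± 0.075), with 2 further probe sets passing at 1.28 and 1.42 and 3 that did not pass (1.10, 0.74 and -0.090). SOS2 was higher by 1.11 ± 0.14, on 1 of its 6 probe sets, and PIK3R1, a regulatory subunit of PI3-kinase, by 0.88 ± 0.22, with its 2 other probe sets passing at 1.07 and 0.87. GAB2 was lower (-0.76 ± 0.11), and it was the only adaptor lower in both fits. SHC1 (-0.53 ± 0.087), which couples receptors to GRB2, and STAT3 (-0.38 ± 0.11) were lower, both on 6 arrays only. SHC1's other probe set passed as well (-0.56), and the 3 others of STAT3 did not (-0.31, -0.36 and -0.40).

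**Figure D4:**
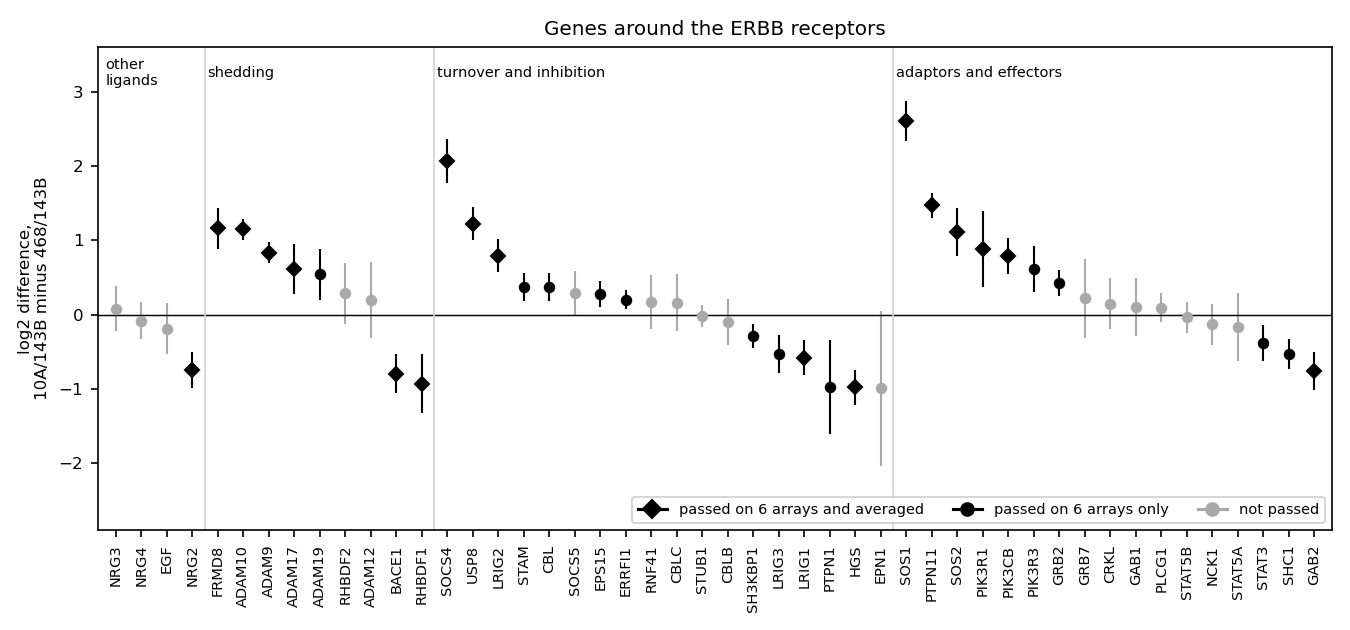
Log2 difference (10A/143B minus 468/143B) with 95% interval of 48 genes around the ERBB receptors, in 4 lists, 1 probe set per gene, as diamonds where it passed both on 6 arrays and with replicates 2 and 3 averaged, black circles where on 6 arrays only and grey where it did not pass. SOS1 stands highest at 2.60, and members of the last 3 lists lie on both sides of 0.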

How the data were processed

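Arrays were Affymetrix HG-U133 Plus 2.0, 3 per cybrid, grouped and numbered by source name. The sample titles number the same arrays otherwise. In both cybrids the array called replicate 1 here bears the number 3 in its title, and replicates 2 and 3 bear 1 and 2. The authors deposited a linear intensity for every probe set of every array. How probes were summarised, background corrected and scaled is not stated in the labels used. Of 54675 probe sets 62 controls were left out. Symbols came from the platform's table and were updated through Entrez identifiers to RefSeq genes of GRCh38.p14, and 41091 probe sets had 1 symbol. Values were used as log2(intensity + 16), so fold changes of dim probe sets are understated. All 54613 probe sets were fitted with limma 3.58.1 in R 4.3.3 (lmFit, eBayes with intensity trend), adjusted by Benjamini-Hochberg over all of them and called at 0.05. The script was tested on simulated data. Precision is limited by the number of arrays.

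The text names every member probe set, of each list up to 4 genes past the threshold in each direction with the largest change, and markers, which are mostly summarised as lists. ERRFI1 and EGF were added after their values were seen. Members and lists were chosen with earlier results of these data known. Alternatives covered offset, scaling, a level filter, variance trend, averaging of replicates 2 and 3, replicate terms, omitted arrays and the choice of probe sets. Sequences are from RefSeq tables, in which 8 of the 10 members had a start. A planned permutation test of the difference between 2 EGFR probe sets is not reported, since the pair was chosen for opposite calls.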

Additional observations from a re-analysis of the deposited data

How the results depend on the processing

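The calls of 5 member probe sets (EGFR 224999_at and 201984_s_at, HBEGF 203821_at and 38037_at, NRG1 206343_s_at) held under all 15 alternatives, with adjusted p from 7.16e-06 to 0.0216. Over all 549 repeats of single probe sets, 24 lost a call, 9 gained one and 25 changed sign, the last all in probe sets that had not passed. The count of higher member probe sets was 1, and 2 with the level filter (201983_s_at added), with the replicate block and with replicate 1 as a batch term (1565484_x_at added in both), and 1 to 5 when arrays were left out, with 5 without 10A/143B replicate 1. The count of lower ones was 9, and 4 with replicates 2 and 3 averaged and 5 to 9 with arrays left out, with 5 without replicate 2 or 3 of 10A/143B or replicate 2 of 468/143B. Averaging replicates 2 and 3 left 5837 higher and 2772 lower calls of 9514 and 5779 over all probe sets, and 12 higher and 6 lower accessory genes of 19 and 11. That fit has fewer samples. By 1 value per gene 0 members were higher and 4 lower in limma (HBEGF, NRG1, TGFA and ERBB4), but 1 was higher (EGFR) without _s_at and _x_at probe sets and 2 were lower (HBEGF, NRG1) when a gene's probe sets were averaged, and the cause was not tested.

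Between the cybrids, deviations from the group mean correlated at 0.251, 0.157 and 0.0975 for arrays numbered 1, 2 and 3. Replicate 1 of either cybrid correlated negatively with replicates 2 and 3 of the other (-0.138 to -0.219), while pairings among replicates 2 and 3 were positive. Deviations cancel out over the 3 arrays of a group, and replicates 2 and 3 were near duplicates. The signs of these other pairings therefore follow largely from the positive value for replicate 1 and add little to it. By that value replicate 1 stood apart in a like way in both cybrids, and why was not tested. Numbers 2 and 3 do not clearly pair, since 468/143B replicate 3 correlated better with 10A/143B replicate 2 (0.124). With the replicate block 8 member probe sets were lower, as ERBB4 206794_at no longer passed (adjusted p = 0.0505), and 16401 of all probe sets were called. With replicate 1 as a batch term 18832 were called, beside 15293 without any term, and all 10 member calls held.

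Signs that changed were those of ERBB3 1563253_s_at after quantile normalization (-0.10) and averaging (-0.060), ERBB3 215638_at with an offset of 1 (0.042), HBEGF 244857_at (-0.0042) and BTC 241412_at (-0.079) after median centring and EREG 205767_at after averaging (0.0095). With arrays left out, differences ran from -0.34 to 0.040 for EGFR 1565483_at, -0.42 to 0.35 for ERBB2 210930_s_at, -0.31 to 0.082 for ERBB2 234354_x_at, -0.13 to 0.49 for ERBB3 1563253_s_at, -0.25 to 0.11 for ERBB3 215638_at, -0.14 to 0.31 for HBEGF 244857_at, -0.11 to 0.028 for EREG 205767_at, -0.080 to 0.029 for TGFA 211258_s_at, -0.047 to 0.11 for BTC 241412_at, -0.57 to 0.17 for NRG1 208230_s_at and -0.18 to 0.36 for NRG1 208231_at. Without detection calls, low intensities limit what EREG, BTC and most ERBB3 and ERBB4 probe sets can show.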
